A study of Homo sapiens with 24 samples.

Results

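The comparison described here sets the knockdown of TAPIR-2 directly against the knockdown of TAPIR-1 at 24 h. It compares 8 of the 24 arrays of the series, 4 with si-A2 and 4 with si-A1. The members were chosen by their labels alone, as the LNCaP samples taken at 24 h after either siRNA. LNCaP is an established, androgen-sensitive prostate cancer cell line, and no genotype other than the knockdown itself is given for it. The cells received 1 of 3 Stealth siRNAs, named si-A1 for TAPIR-1, si-A2 for TAPIR-2 and si-SCRL for the scrambled control. Every group had passed through the same electroporation. The 4 si-SCRL arrays at 24 h are used to place each difference. They also entered the filters and the estimate of the spread behind the calls. Each target was represented by 1 siRNA, so that a response to loss of the transcript and a response particular to that siRNA cannot be told apart. On both slides the siRNA also went with the column of the array, which cannot be told apart from it either. The 4 replicates of a group were separate biological samples, 2 on each of 2 slides. Another 4 arrays with si-A2 and 4 with si-A1, taken at 48 h and hybridised to another array version, were used as separate samples of the same contrast.

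TAPIR-1 and TAPIR-2 are spliced long non-coding RNAs from the same intergenic locus on the minus strand of chromosome 2. An siRNA guides the Argonaute protein to transcripts that pair with it, which are then cleaved, and pairing through the seed of the guide strand alone can lower other messages as well. A pair of siRNAs against neighbouring transcripts may therefore share a response and also differ in a set of genes of their own. p53, the transcription factor that halts the cell cycle under stress, turns on genes such as CDKN1A, and the DREAM complex then holds down the genes of DNA synthesis and mitosis.

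The arrays were alike in quality, apart from si-SCRL replicate 3 at 24 h and si-A2 replicate 2 at 48 h. The median processed intensity of an array, the brightness of its spots after background subtraction on a linear scale, ranged from 28.9 to 57.2 with si-A1 and from 26.7 to 48.5 with si-A2, and between 58.5% and 71.7% of the probes of a 24 h array were rated well above background. All 12 markers of luminal prostate cells were well above background on all 12 arrays of 24 h, while 0 of 6 markers of stromal fibroblasts were, and 3 of these 6 were on no array. Of the markers of other cell types, 1 of 5 for basal epithelium, 5 of 5 on the array for leukocytes and 3 of 4 for endothelium were well above background on every array, but no marker of any of these lists differed between si-A2 and si-A1 in the test. At 24 h si-SCRL replicate 3 was the weakest array. It had a median processed intensity of 24.4, a median correlation of 0.960 with the other arrays and a bright corner spot of 138052, against 177783 to 261266 on the other 24 h arrays. Of the 48 h arrays, replicate 2 with si-A2 stood apart, with a median correlation of 0.638 with the other arrays. Its bright corner spot was 5031.9 against 386747 to 491967 on the other 48 h arrays. The study likewise dropped 1 si-A2 replicate at 48 h for low foreground intensity, without giving its number. Results at 48 h are therefore given without replicate 2 with si-A2, and the main ones also with it.

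The targeted transcripts were examined first. A probe of TAPIR-2 was matched by its transcript, and no probe of TAPIR-1 was matched. The TAPIR-2 probe read 4.95, 4.75, 4.68 and 4.19 in replicates 1 to 4 after si-A1 and 4.70, 3.12, 4.61 and 3.82 after si-A2, on the scale of normalized log2 intensity used throughout. The groups overlapped, and the probe was well above background on 4 of 4 arrays with si-A1 and on 2 of 4 with si-A2. It was lower after si-A2 by 0.58 (means 4.64 ± 0.32 and 4.06 ± 0.74, SD, n = 4 each; SE of the difference 0.33, 95% confidence interval -1.30 to 0.14), which did not pass either test (exact two-sided permutation test, p = 0.2, where the smallest possible p is 0.0286; limma adjusted p = 0.622). With si-SCRL the mean was 5.04 ± 0.20 (n = 4). The difference was -0.14 with the normexp background correction. That correction adds an offset of 50 to each intensity, which in itself makes differences of dim probes smaller. At 48 h a pair of TAPIR-2 probes differed by 0.05 and 0.18 without the si-A2 array that stood apart, and by -0.06 and 0.93 with it, none of them called. The level of TAPIR-2 on these arrays therefore does not separate the knockdowns, and TAPIR-1 was not checked.

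At 24 h few genes passed the threshold between the siRNAs. Among 15186 genes that were above background and varied between arrays, 17 (0.112%) differed at an adjusted p below 0.01 and a log2 difference of at least 0.5, 11 of them higher (0.0724%) and 6 lower (0.0395%) after si-A2. At an adjusted p below 0.05 there were 88 (0.579%), of which 55 were higher and 33 lower. Without the requirement that a gene vary between arrays, 113 of 36639 genes were called (0.308%), 75 higher (0.205%) and 38 lower (0.104%). All 113 differed in the same direction on both slides with groups that did not overlap, which is a description of genes chosen on these same arrays. Of the 17 genes, 15 were also among these 113. The genes of the gene lists below are taken from this wider fit, in which the residual SD of the genes had a median of 0.319, against 0.532 among the genes that vary. With only the arrays of si-A1 and si-A2 fitted, 0 genes were called in the narrower set and 23 in the wider. These counts also depended on single arrays. With an array left out, the narrower set held 0 calls (si-A2 replicate 1, si-A1 replicate 2 or si-A2 replicate 4 left out) to 19 (si-SCRL replicate 3). The wider set held 27 when si-A1 replicate 2 was left out and 253 when si-SCRL replicate 3 was.

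The genes that differed most are shown array by array in the map of 24 genes. Higher after si-A2 were, among others, the lysosomal lipase LIPA, the chaperone HSPA1B and the actin-binding TMSB15A, and lower were the cholesterol carrier NPC2, the ceramide synthase CERS6 and the receptor BMPR2.

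**Figure D1:**
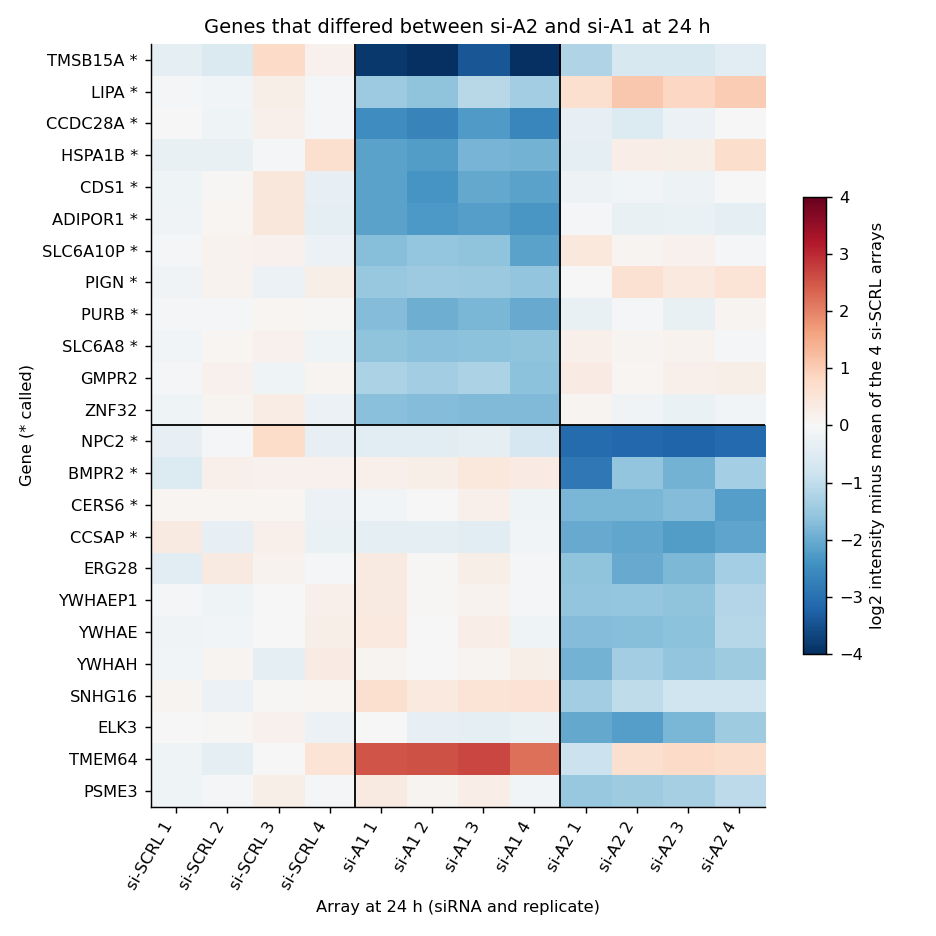
Each row is a gene and each column an array of 24 h, grouped by siRNA. The colour gives the normalized log2 intensity minus the mean of the 4 si-SCRL arrays of that gene (scale from -4, blue, to 4, red). Genes above the horizontal line were higher after si-A2 and genes below it lower, and an asterisk marks the genes called in the narrower set. In the upper block the si-A1 columns are blue and the si-A2 columns stay near the control. In the lower block the si-A2 columns are blue, apart from TMEM64, for which the si-A1 columns are red.

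TMSB15A (chromosome X, 102513682 to 102516739 on GRCh38), a thymosin that binds actin monomers, read 2.28, 1.68, 2.69 and 1.62 after si-A1 and 4.92, 5.47, 5.49 and 5.66 after si-A2. No si-A1 array was well above background and all 4 si-A2 arrays were. On the scale of processed intensity the difference is therefore a bound, at least 3.46-fold higher after si-A2 (measured means 2.07 and 5.38, limma adjusted p = 0.00129). This bound does not carry over to the normexp background correction, where the log2 difference was 0.66. With si-SCRL it read 5.54 to 6.88, which overlapped the si-A2 arrays and lay far above those of si-A1.

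LIPA (chromosome 10, 89213572 to 89414679), the lysosomal acid lipase that hydrolyses cholesteryl esters, was higher after si-A2 by 2.28 (4.85-fold, SE 0.24, limma adjusted p = 0.00129). It read 4.21, 4.06, 4.57 and 4.30 after si-A1 and 6.32, 6.75, 6.49 and 6.69 after si-A2, with the control at 5.57 to 5.92 between them. Its difference from the control was -1.39 with si-A1 (limma adjusted p = 0.00548) and 0.88 with si-A2 (limma adjusted p = 0.0768, not called). HSPA1B (chromosome 6, 31827738 to 31830254), an inducible HSP70 chaperone, read 7.92, 7.83, 8.20 and 8.16 after si-A1 and 9.65, 10.30, 10.27 and 10.76 after si-A2, a difference of 2.22 (SE 0.27, limma adjusted p = 0.00395). The near-identical HSPA1A cannot be separated from it with certainty.

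CDS1 (chromosome 4, 84583127 to 84651334), which makes CDP-diacylglycerol for phospholipid synthesis, read 6.14, 5.92, 6.24 and 6.12 after si-A1 and 8.09, 8.16, 8.07 and 8.30 after si-A2. The groups were far apart, by 2.05 (SE 0.25, limma adjusted p = 0.00395), and a further probe of CDS1 differed by 1.52. ADIPOR1 (chromosome 1, 202940825 to 202958572), a receptor of adiponectin, read 9.07, 8.92, 9.0 and 8.88 after si-A1 and 11.16, 10.93, 10.94 and 10.84 after si-A2, which is 4.00-fold higher (log2 difference 2.00, SE 0.25, limma adjusted p = 0.00453). PIGN (chromosome 18, 62017615 to 62187056), an enzyme of glycosylphosphatidylinositol anchor synthesis, read 6.18, 6.25, 6.22 and 6.12 after si-A1 against 7.70, 8.33, 8.09 and 8.25 after si-A2, a difference of 1.90 (SE 0.25, limma adjusted p = 0.00496). For both CDS1 and ADIPOR1 the si-A2 arrays overlapped the control, and the si-A1 arrays were more than 1 log2 unit below it.

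The creatine transporter SLC6A8 (chromosome X, 153687926 to 153696593) read 7.96, 7.87, 7.93 and 7.94 after si-A1 and 9.76, 9.67, 9.71 and 9.48 after si-A2 (log2 difference 1.73, SE 0.23, limma adjusted p = 0.00496). A further probe of SLC6A8 differed by 1.93. The pseudogene SLC6A10P, a near copy of it, was called with a difference of 1.90 (limma adjusted p = 0.00496), but its other, brighter probe differed by -0.04, so that this call is uncertain. CCDC28A, a coiled-coil protein, differed by 2.22 (5.46 ± 0.18 and 7.68 ± 0.21, SD, n = 4 each, limma adjusted p = 0.00129), and the DNA- and RNA-binding protein PURB by 1.75 (7.51 ± 0.13 and 9.26 ± 0.20, n = 4 each, limma adjusted p = 0.00527). GMPR2, a GMP reductase, and the zinc finger protein ZNF32 differed by 1.60 and 1.63 with groups that did not overlap but were not called in the narrower set (limma adjusted p = 0.0102 for each), and in the wider set both were (limma adjusted p = 0.000634 and 0.000796).

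In the other direction NPC2 (chromosome 14, 74479935 to 74493512), the soluble lysosomal protein that hands cholesterol to NPC1, showed the largest decrease. It read 10.65, 10.64, 10.72 and 10.41 after si-A1 and 8.0, 7.93, 7.88 and 7.97 after si-A2, a difference of -2.66 or 6.31-fold (SE 0.28, limma adjusted p = 0.00129). The si-A2 arrays were close to each other, and the control at 10.75 to 11.81 lay above both knockdowns. For si-A1 the difference from the control was small, at -0.47 (limma adjusted p = 0.505, not called). For si-A2 it was -3.13 (limma adjusted p = 8.24e-05).

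BMPR2 (chromosome 2, 202376327 to 202567749), the type II receptor of bone morphogenetic proteins, read 6.38, 6.42, 6.62 and 6.51 after si-A1 and 3.32, 4.61, 4.29 and 4.84 after si-A2 (log2 difference -2.22, SE 0.32, limma adjusted p = 0.00877). CERS6 (chromosome 2, 168456272 to 168775134), a ceramide synthase, read 10.20, 10.29, 10.50 and 10.12 after si-A1 and 8.49, 8.47, 8.55 and 8.10 after si-A2 (-1.87, SE 0.24, limma adjusted p = 0.00453), and a further probe of CERS6 differed by -1.80. CCSAP (chromosome 1, 229321015 to 229343047), a protein of the centriole and the spindle, read 6.96, 6.94, 6.89 and 7.24 after si-A1 and 5.33, 5.26, 5.11 and 5.23 after si-A2 (-1.78, SE 0.25, limma adjusted p = 0.00877). For BMPR2 and CERS6 the si-A1 arrays overlapped the control and the si-A2 arrays lay below it.

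The next 8 genes in this direction did not pass the threshold in the narrower set (adjusted p-values below are of that fit) and were called in the wider set, at limma adjusted p-values from 0.00100 to 0.00924, and their groups did not overlap. They included a pair of 14-3-3 adaptor proteins, YWHAE with 11.29 ± 0.26 after si-A1 and 9.59 ± 0.28 after si-A2 (-1.69, limma adjusted p = 0.0111) and YWHAH with 7.60 ± 0.09 and 5.92 ± 0.23 (-1.68, limma adjusted p = 0.0112, SD and n = 4 for each mean). The pseudogene YWHAEP1, which shares sequence with YWHAE, differed by -1.60. ERG28, a scaffold of the sterol synthesis enzymes, differed by -1.83 (limma adjusted p = 0.0105), the proteasome activator PSME3 by -1.48 and the non-coding RNA SNHG16 by -1.54. The ETS factor ELK3 was well above background on 4 of 4 si-A1 arrays and on 0 of 4 si-A2 arrays. On the scale of processed intensity this bounds its difference, at least 2.32-fold lower after si-A2 (means 5.04 and 3.39, limma adjusted p = 0.0139). TMEM64 differed by -2.16 (limma adjusted p = 0.0152) and stood above the control after si-A1, by 2.47, and not below it after si-A2 (0.31).

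The size of the difference of the dim genes among these depended on how background was corrected. With normexp a smaller difference was fixed in advance for them by its offset of 50, so it is no separate sign of instability. With the normexp correction all 23 of the genes of the map that were measured kept their direction, and 8 were smaller by over 1.5 times, TMSB15A at 0.66, LIPA at 0.90, CCDC28A at 1.33, BMPR2 at -0.78, CCSAP at -0.96, YWHAH at -1.04, SNHG16 at -0.97 and TMEM64 at -0.99. The calls also depended on single arrays. Of 12 omissions of an array, 12 ended the call of BMPR2 and 11 each those of SLC6A8, PURB and CCSAP. The calls of ADIPOR1, SLC6A10P, PIGN and CERS6 ended in 10, and those of HSPA1B and CDS1 in 8. Those of LIPA, CCDC28A and NPC2 ended in 5 and that of TMSB15A in 3. All of these genes kept their direction.

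The remaining 3 of the 17 calls had no RefSeq name. The probe A_33_P3374365 read 14.84 ± 0.10 after si-A1 and 12.60 ± 0.26 after si-A2 (-2.24, n = 4 each, limma adjusted p = 0.00238). The transcripts ENST00000414776 and ENST00000439058 were called with 1.96 and -1.88, but the former was well above background on no array of either knockdown and the latter on 2 si-A1 arrays and 0 si-A2 arrays.

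The si-SCRL arrays show which knockdown departed from the control. Of the 75 genes higher after si-A2, 66 lay farther from si-SCRL after si-A1, each of them below it, and the median difference from si-SCRL was -1.22 for si-A1 but 0.10 for si-A2. Of these 75 genes, 58 were called against si-SCRL for si-A1 and 6 for si-A2, where 1.03% and 0.903% of all genes were, and 19683 of all 36639 genes lay farther from si-SCRL after si-A1. Of the 38 genes lower after si-A2, 32 lay farther from si-SCRL after si-A2, again each below it, with medians of 0.15 for si-A1 and -1.08 for si-A2, and 2 were called against si-SCRL for si-A1 and 27 for si-A2. Both contrasts with si-SCRL share the 4 control arrays, so these values are set side by side without a test of their relation. The genes were also chosen by a large difference between si-A2 and si-A1 on these same arrays. That choice forces a departure from si-SCRL for at least 1 siRNA, so the shares of all genes are no measure for these counts.

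**Figure D2:**
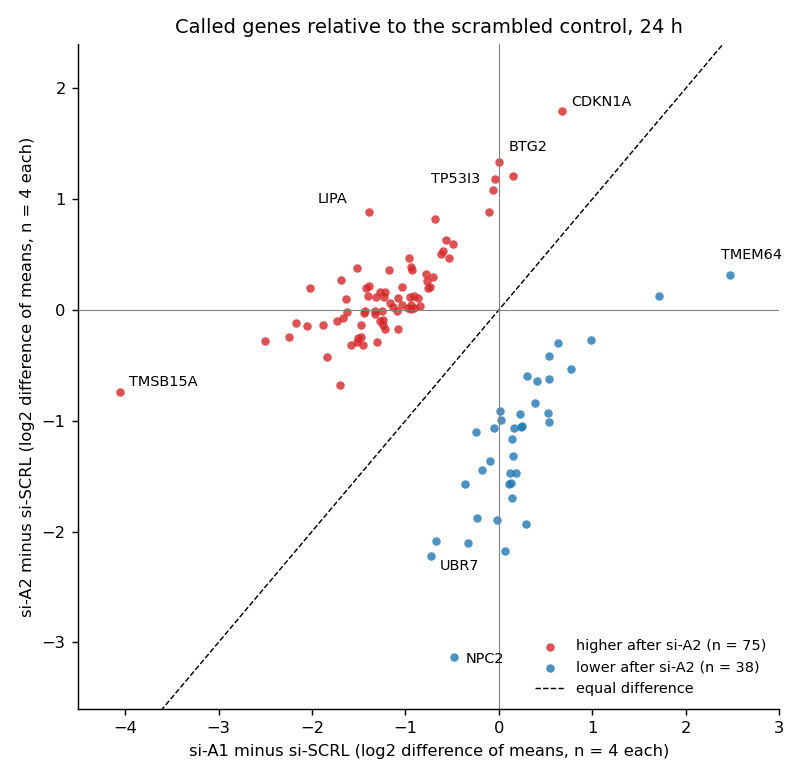
Each point is a gene called between si-A2 and si-A1 at 24 h in the wider fit, with its difference from si-SCRL after si-A1 on the x axis and after si-A2 on the y axis (log2 differences of means, n = 4 each). The dashed line marks equal differences. The 75 genes higher after si-A2 (red) stretch along the left of the x axis at y values around a median of 0.10, and the 38 genes lower after si-A2 (blue) stretch down the y axis at x values around a median of 0.15. CDKN1A lies to the upper right and TMEM64 to the far right.

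The p53 targets were the gene list with the highest median. Of 66 listed genes 64 were measured, 51 of them higher and 13 lower after si-A2, where 47.7% of all genes were higher. The median difference was 0.37 against -0.01 over all genes. Called were 4 targets, all higher after si-A2 (of all genes 0.205% were called higher), and 30 were higher and 1 lower at an unadjusted p below 0.05, which 5.54% and 5.12% of all genes reached. The groups did not overlap for 33 of the 64, and for 9.99% of all genes.

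BTG2 (chromosome 1, 203305519 to 203309602), an antiproliferative cofactor of mRNA deadenylation, read 10.88, 10.55, 10.90 and 10.62 after si-A1 and 11.76, 12.01, 12.10 and 12.42 after si-A2 (log2 difference 1.33, SE 0.18, limma adjusted p = 0.00795). TP53I3 (chromosome 2, 24077433 to 24084834), a quinone oxidoreductase, read 7.26, 7.24, 7.38 and 7.56 against 8.60, 8.58, 8.39 and 8.76 (1.22, SE 0.14, limma adjusted p = 0.00315), and a further probe differed by 1.26. After si-A1 both genes overlapped si-SCRL, whereas after si-A2 they were higher than si-SCRL, by 1.33 and 1.18 (limma adjusted p = 0.00311 and 0.00137).

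CDKN1A (chromosome 6, 36676463 to 36687332), the CDK inhibitor p21, read 11.58, 11.36, 11.54 and 11.59 after si-A1 and 12.76, 12.35, 12.47 and 12.96 after si-A2. It was higher after si-A2 by 1.12 (SE 0.15, limma adjusted p = 0.00636), and it stood above si-SCRL after either siRNA, by 0.68 with si-A1 (limma adjusted p = 0.0465, not called) and by 1.79 with si-A2 (limma adjusted p = 0.000102). TRIAP1 (chromosome 12, 120443964 to 120446384), a mitochondrial lipid transfer partner that protects from apoptosis, read 8.32, 8.0, 8.21 and 7.93 against 9.14, 9.22, 9.32 and 9.25 (1.12, SE 0.14, limma adjusted p = 0.00505). It lay to either side of si-SCRL, with a difference of -0.62 after si-A1 and one of 0.50 after si-A2, neither of them called. These calls did not hold when single arrays were left out: of 12 omissions, 11 ended the call of BTG2, 11 that of CDKN1A, 10 that of TRIAP1 and 7 that of TP53I3, with differences that stayed between 1.03 and 1.43. Without si-A1 replicate 2, the omission with the highest values, the limma adjusted p was 0.0430 for BTG2, 0.0211 for TP53I3, 0.0383 for CDKN1A and 0.0321 for TRIAP1.

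**Figure D3:**
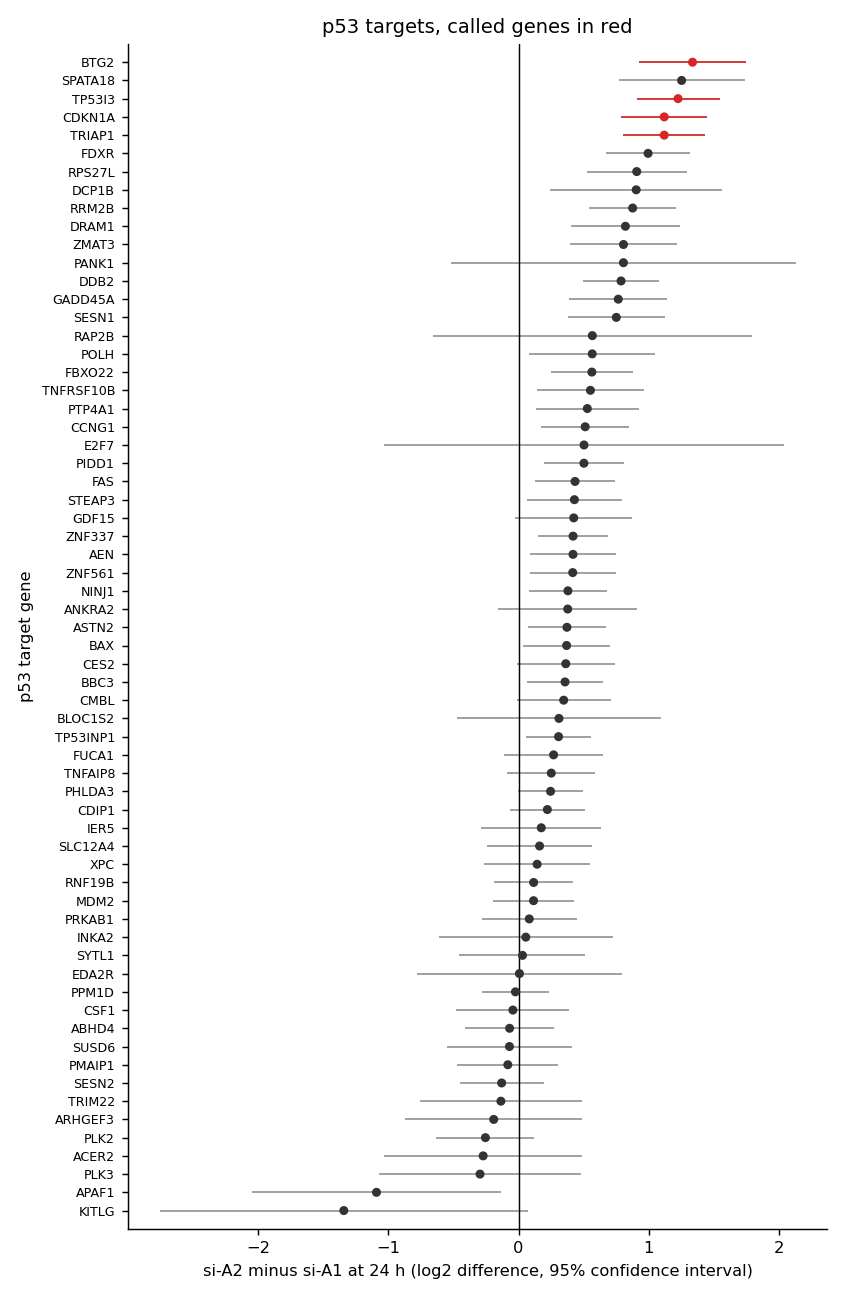
The 64 measured p53 targets, ordered by the log2 difference between si-A2 and si-A1 at 24 h (x axis). Points are limma estimates over 4 arrays per siRNA and bars their 95% confidence intervals, red where the gene was called. Most points lie to the right of 0 (51 of 64), the 4 called genes lie between 1.12 and 1.33, and 13 genes lie to the left.

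The mean log2 level of the whole list was 7.73 to 7.90 on the si-A1 arrays, 8.12 to 8.25 on the si-A2 arrays and 7.70 to 7.90 on the si-SCRL arrays. The si-A2 arrays were thus above all others, and the si-A1 arrays overlapped the control. Called against si-SCRL were 2 members after si-A1 and 10 after si-A2, all higher, where 0.0737% and 0.0764% of all genes were called higher. Of the 12 genes that regulate the p53 protein, 4 were higher and 8 lower, with a median of -0.08 and 0 called (1 at an unadjusted p below 0.05). HIPK2, a kinase that phosphorylates p53, differed by -0.55 (SE 0.17, limma adjusted p = 0.209). Of the BCL2 family, the regulators of mitochondrial apoptosis, 0 of 19 were called, with BCL2L1 at 0.52 (limma adjusted p = 0.0773), BBC3 at 0.36 and BID at -0.43. Besides CDKN1A no other CDK inhibitor of 8 was called, and CDKN1C read 4.90 to 5.52 after si-A1 and 4.14 to 4.76 after si-A2 (-0.77, limma adjusted p = 0.157).

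Few of the cell cycle genes that lay below si-SCRL after both knockdowns told them apart. In these bulk samples fewer cycling cells and less RNA per cell cannot be told apart. The median difference from si-SCRL of the S phase list was -1.50 for si-A1 (25 of 42 called lower) and -1.46 for si-A2 (27 called lower, where 0.958% and 0.827% of all genes were called lower for si-A1 and si-A2), that of the G2/M list -1.20 and -1.37, and that of the replication-dependent histones -1.53 and -1.69. Directly compared, the median between si-A2 and si-A1 was -0.14 for each of these lists. Of 42 S phase genes 28 were lower after si-A2, 1 was called, lower, and 10 had an unadjusted p below 0.05. Of 54 G2/M genes 35 were lower, 0 were called and 9 had such a p. Of 54 histone genes 40 were lower, 0 were called and 5 had such a p. Over all genes 52.3% were lower, 0.104% were called lower and 3906 of 36639 had such a p.

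The called S phase gene was UBR7 (chromosome 14, 93207256 to 93229215), a ubiquitin ligase that recognises histone H2B, which read 5.45, 5.0, 5.34 and 5.35 after si-A1 and 3.41, 3.86, 3.68 and 4.22 after si-A2 (-1.49, SE 0.18, limma adjusted p = 0.00322). It was well above background on 4 of 4 si-A1 arrays and 1 of 4 si-A2 arrays. The call of UBR7 was lost in 7 of 12 omissions of an array and in 4 of 12 other settings, and its difference was -0.46 with the normexp background correction. Of the G2/M list, RANGAP1, the GTPase activator of Ran, came closest with 0.77 (SE 0.12, limma adjusted p = 0.0150), and the kinetochore protein CENPF and the phosphatase CDC25C differed by -0.58 and -0.45 without being called. GMNN, the inhibitor of replication licensing, read 7.89 to 8.19 after si-A1 and 7.42 to 7.68 after si-A2 (-0.51, limma adjusted p = 0.0796). Thymidylate synthase (TYMS), which makes dTMP for DNA synthesis, differed by 0.64 and was not called (limma adjusted p = 0.0971).

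Of the cell cycle and repair genes that the study followed by name, CDKN1A was called between the siRNAs and the others were not. The proliferation marker MKI67 differed by 0.01 (SE 0.15, limma adjusted p = 0.992; 0.50 with the median over its probes, not called), the mitotic kinase AURKA by -0.08 (SE 0.15), FOXM1 by -0.10 (SE 0.13), the survivin gene BIRC5 by 0.18 (SE 0.12), the kinesin KIF23 by -0.13 (SE 0.14), CCNB1 by -0.07 (SE 0.28) and CCNB2 by 0.39 (SE 0.26). Their groups overlapped, and each SE shows the size of a difference that 4 arrays against 4 could still hide. The DREAM target MYBL2 read 6.90 to 7.31 after si-A1 and 6.55 to 6.83 after si-A2, which did not overlap (-0.44, SE 0.14, limma adjusted p = 0.226). BRCA1 was well above background on no array of either knockdown, with means that differed by -0.03, and CHEK1 and CLSPN differed by -0.29 (SE 0.25) and -1.04 (SE 0.36, limma adjusted p = 0.282). The histone H1-5 differed by -0.31 (SE 0.34) and H2AC16, at -0.75 (limma adjusted p = 0.0410), had the smallest p of the histone list. Of the E2F factors, which drive the S phase genes, E2F1 read 5.46 to 6.15 after si-A1 and 4.87 to 5.41 after si-A2 (-0.77, SE 0.18, limma adjusted p = 0.0846) and E2F2 differed by -1.30 (SE 0.28, limma adjusted p = 0.0594). E2F2 was well above background on 2 of 4 si-A1 and 0 of 4 si-A2 arrays. On the scale of processed intensity this leaves a bound of at least 1.19-fold lower, and CLSPN likewise, with at least 1.08-fold. With the normexp background correction the differences were -0.17 for E2F2, -0.17 for CLSPN, -0.33 for E2F1 and -0.68 for the interferon-induced GBP1 described below, and 32 of the 82 genes named outside the map were smaller by over 1.5 times.

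The lists of the DREAM complex, the Fanconi anemia pathway and the response to stress gave no call. Of the 11 DREAM subunits, 10 were lower and 1 higher after si-A2 (median -0.28). An unadjusted p below 0.05 was reached by 5 of them, and by 3906 of all 36639 genes. The histone-binding RBBP4 at -0.68 (limma adjusted p = 0.102) and LIN52 at -0.89 (limma adjusted p = 0.245) were among the lower ones. TFDP1, the partner of the E2F factors, was at 0.59. Of 19 Fanconi anemia genes 10 were higher and 9 lower (median 0.04, 4 at an unadjusted p below 0.05), with FANCI at 0.37 and BRIP1 at -0.77. The integrated stress and unfolded protein response had the lowest median of the lists, -0.30, with 29 of 34 genes lower. Of these, 16 were lower at an unadjusted p below 0.05 (5.12% of all genes). The groups did not overlap for 19 of 34 (9.99% of all genes). Its members did not reach the threshold, with CHAC1, which degrades glutathione, at -1.02 (10.19 to 10.53 after si-A1 and 9.24 to 9.52 after si-A2, limma adjusted p = 0.0266), the pseudokinase TRIB3 at -0.73 and the transcription factor ATF4 at -0.56. DDIT4, an inhibitor of mTORC1, differed by 0.61 the other way.

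**Figure D4:**
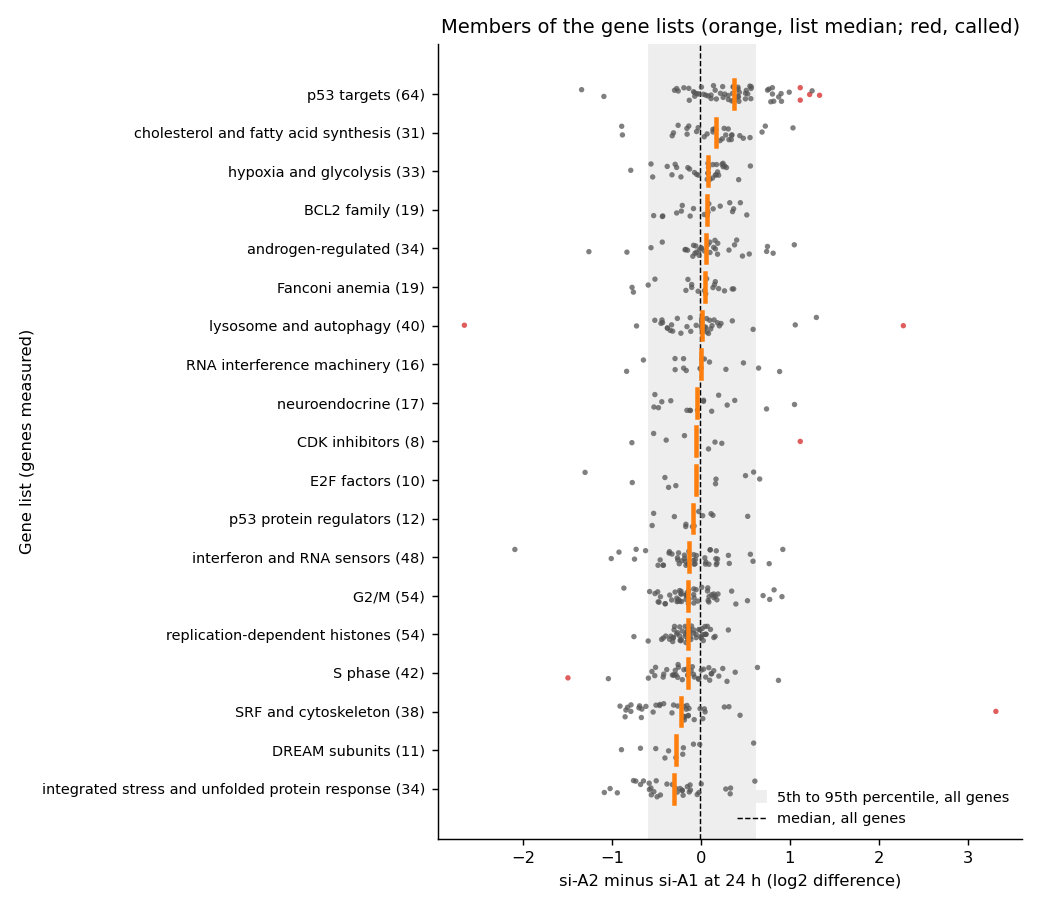
Each point is a measured gene of a list, placed by its log2 difference between si-A2 and si-A1 at 24 h (x axis), with the number of genes measured in parentheses. Orange bars are list medians, red points are called genes, the grey band spans the 5th to 95th percentile of all genes and the dashed line is their median. The p53 targets have the median farthest to the right (0.37) and the integrated stress and unfolded protein response the median farthest to the left (-0.30). In the lysosome and autophagy list LIPA lies at 2.28 and NPC2 at -2.66, and the point of TMSB15A in the SRF and cytoskeleton list is a measured value against a group below background.

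The lysosome and autophagy list held calls in both directions. LIPA and NPC2, described above, act in turn on cholesterol in the lysosome, and they were called in opposite directions. The median of the 40 genes was 0.01 (23 higher, 17 lower). An unadjusted p below 0.05 was reached by 10 of them, and by 3906 of all 36639 genes. LAMP1, a membrane protein of the lysosome, read 9.09 to 9.20 after si-A1 and 10.09 to 10.34 after si-A2 (1.06, SE 0.19, limma adjusted p = 0.0287), and ATP6V0D1, a subunit of the proton pump, differed by -0.72 (limma adjusted p = 0.0161). Of the cholesterol and fatty acid synthesis genes 21 of 31 were higher (median 0.17), 0 were called and 9 had an unadjusted p below 0.05. ACLY, which makes cytosolic acetyl-CoA, differed by 0.69 (limma adjusted p = 0.0372), MSMO1 and HMGCS1 of sterol synthesis by 0.72 and 0.55, and the desaturase FADS1 by -0.88.

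In the list of SRF targets and cytoskeletal genes TMSB15A was called (0.205% of all genes were called higher), and 31 of 38 genes were lower (median -0.23). At an unadjusted p below 0.05, 14 were lower (5.12% of all genes). TPM2, a tropomyosin, read 7.0 to 7.08 after si-A1 and 6.16 to 6.40 after si-A2 (-0.79, SE 0.13, limma adjusted p = 0.0167), MYL9, a myosin light chain, differed by -0.82 and the actin gene ACTG2 by -0.67. Of 48 interferon-induced genes and RNA sensors 0 were called (median -0.13). An unadjusted p below 0.05 was reached by 7 of them, and by 3906 of all 36639 genes. GBP1, a guanylate-binding protein, read 6.11, 5.84, 6.0 and 4.81 after si-A1 and 4.11, 2.75, 4.35 and 3.19 after si-A2 (-2.09, SE 0.38, limma adjusted p = 0.0271), and relative to si-SCRL it was at 2.25 with si-A1 and at 0.16 with si-A2. Its neighbour in function GBP2 differed by -0.92, whereas USP18, which limits interferon signalling, and the sensor EIF2AK2 differed by 0.92 and 0.56.

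The remaining lists were centred near 0 and held no call. Beside their counts at an unadjusted p below 0.05 stand 3906 of all 36639 genes. Of 34 androgen-regulated genes 20 were higher (median 0.06, 7 at an unadjusted p below 0.05), with the protease TMPRSS2 at -0.83 (limma adjusted p = 0.0435) and ALDH1A3, ACSL3 and SLC45A3 at 1.05, 0.81 and 0.74. The RNA interference machinery had 8 of 16 genes higher (median -0.0029, 6 at an unadjusted p below 0.05). The subunits of its C3PO nuclease parted, TSNAX at 0.89 (limma adjusted p = 0.0211) and TSN at -0.83 (limma adjusted p = 0.0251), each with groups that did not overlap and a further probe in the same direction. The medians were 0.08 for 33 hypoxia and glycolysis genes (4 at an unadjusted p below 0.05), with CA12 at -0.79, and -0.04 for 17 neuroendocrine genes (3 at an unadjusted p below 0.05), with TUBB3 at -0.44.

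At 48 h the genes that told the siRNAs apart at 24 h mostly still did. Without the si-A2 array that stood apart, 282 of 17476 genes were called at 48 h (1.61%), 209 higher (1.20%) and 73 lower (0.418%) after si-A2. With all 12 arrays 0 of 20657 were (limma, 0.00%; 1663 or 8.05% at an unadjusted p below 0.05). Of the 113 genes called at 24 h, 109 had their probe on the 48 h array, and 104 of these (95.4%) differed in the same direction, where 59.8% of all genes did. Called at 48 h in the same direction were 68 (of all probes 1.47% were called), and 0 were called in the opposite direction. With all 12 arrays 95 of 110 had the same direction.

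By direction, and without the array that stood apart, 54 of 73 genes higher and 14 of 36 lower after si-A2 at 24 h were called at 48 h. LIPA was higher after si-A2 at 48 h by 2.00 (limma adjusted p = 0.00102) and HSPA1B by 2.43 (limma adjusted p = 0.000269). NPC2 differed by -1.94 (limma adjusted p = 0.000343), and YWHAE and ERG28 by -1.59 and -1.96 (limma adjusted p = 0.00102 for each). With the array that stood apart these differences were 1.16, 1.19, -2.50, -2.18 and -2.14 in the same order. Without that array BMPR2 at -1.15 (limma adjusted p = 0.0251), CCSAP at -0.48, YWHAH at -0.26 and the probe A_33_P3374365 at 0.10 were not called at 48 h. Nor were SNHG16 at -0.67, ELK3 at -1.21, TMEM64 at -1.91 and PSME3 at -0.71. With that array BMPR2, CCSAP, YWHAH and the probe were at -1.76, -1.49, -1.38 and -1.26 in this order. SNHG16, ELK3, TMEM64 and PSME3 were then at -1.53, -1.16, -2.38 and -1.52, and again none of them was called.

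**Figure D5:**
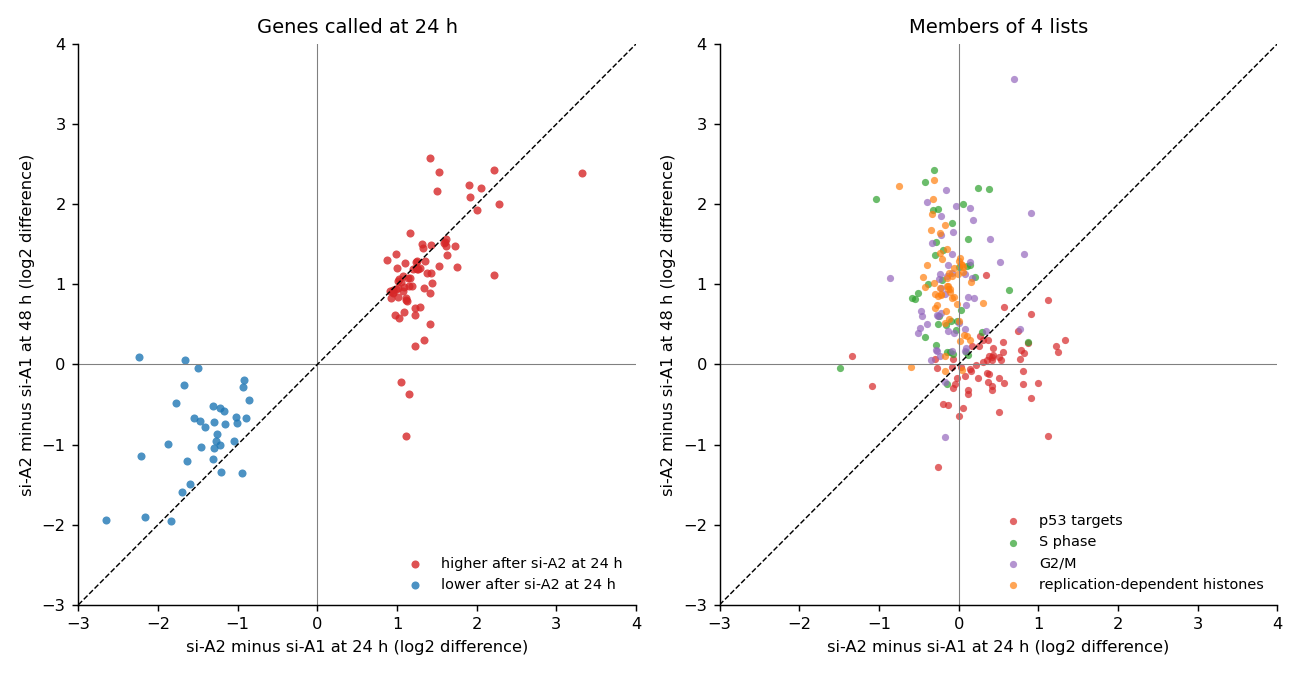
Log2 difference between si-A2 and si-A1 at 24 h (x axis) and at 48 h without si-A2 replicate 2 (y axis). Left, the genes called at 24 h, of which 104 of 109 lie in the quadrants of equal direction. Right, members of 4 lists, in which p53 targets lie to the right of 0 at 24 h and around 0 at 48 h, and S phase, G2/M and histone genes lie near 0 at 24 h and mostly above 0 at 48 h. The dashed line marks equal differences.

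The gene lists differed between the time points, which were measured on different array versions, so that time and array version cannot be told apart. A test of the change of the difference from 24 h to 48 h, over 35498 probes present on both array versions, called 56 (0.158%), 52 of them higher at 48 h. It rested on leaving out the si-A2 array that stood apart, since with it 1 of 36683 was called (0.00273%). The median difference of the S phase genes went from -0.15 at 24 h to 0.83 at 48 h, with 38 of 40 higher after si-A2 and 11 called in the test of change. The medians went from -0.14 to 0.88 for the G2/M genes (50 of 52 higher, 2 called) and from -0.14 to 0.89 for the histones (51 of 54 higher, 6 called). Over all genes the median was -0.01 and -0.03, and 13419 of 29425 were higher after si-A2 at 48 h. The p53 targets went from 0.38 to -0.01, with 2 called lower. With all arrays the medians at 48 h were 0.45, 0.38, 0.17 and -0.49 in this order, and -0.10 over all genes. Higher after si-A2 were then 27 of 40, 37 of 52, 33 of 54 and 15 of 63 in the same order, and 13745 of all 30423.

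CDKN1A was the called p53 target that changed most, from 1.25 at 24 h to -0.85 at 48 h (change -2.10, SE 0.23, limma adjusted p = 0.000304). E2F1 went the other way, from -0.78 to 1.38 (change 2.16, SE 0.32, limma adjusted p = 0.00329), and so did the replication inhibitor GMNN, which changed by 1.40 (SE 0.19, limma adjusted p = 0.00148). With all arrays the changes of CDKN1A, E2F1 and GMNN were -2.70, 2.07 and 0.21 in this order, and none of them was called. At 48 h itself, without the array that stood apart, CHEK1 was higher after si-A2 by 1.37 (limma adjusted p = 0.00356) and AURKA by 1.14 (limma adjusted p = 0.00950), and with that array by 0.38 and 0.01, not called. Of the 109 genes called at 24 h in the wider set, 4 changed in this test. CDKN1A and the probe A_33_P3232742 (1.04 to -0.22) turned direction, the probe A_33_P3374365 came close to 0 (-2.52 to 0.07) and YWHAH shrank from -1.65 to -0.26. With all arrays none of these 4 was called. The changes were then -1.67 for A_33_P3232742, 1.35 for A_33_P3374365 and 0.34 for YWHAH.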

How the data were processed

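The authors hybridised Cy3-labelled RNA of 24 LNCaP samples to one-colour Agilent arrays and deposited the Feature Extraction output, whose processed signal is a linear intensity after background correction within the array. The authors also deposited log2 values, quantile-normalized between arrays, for each time point (R 3.4.3 and limma 3.34.8, per their processing notes, on hg38). Here the log2 of these intensities was quantile-normalized over the 12 arrays of each time point, outlier spots were left out, repeated spots averaged, and probes named through RefSeq accessions on GRCh38.p14 (29033 of 50599 at 24 h, 57.4%). Probes above the mean plus 3 SD of 308 negative controls on at least 3 arrays whose interquartile range reached 0.5 were tested, with the brightest probe per gene. Probes that match several genomic places, which the study dropped, were kept, since no genome was used here. The fit without the interquartile filter served for list members and the wider counts.

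limma 3.58.1 (R 4.3.3, statmod 1.5.0, data.table package 1.17.8) was fitted over the 3 siRNA groups of a time point with the slide as an additive term. Adjusted p-values are after Benjamini-Hochberg over all genes tested, and a gene was called below 0.01 with an absolute log2 difference of at least 0.5. A probe that no array of a group rated well above background has only a bound there, computed against the higher of the lowest signal well above background on each array and the probe's own value. Such a bound holds for the processed signal and not for other background corrections. The change between time points was fitted over the probes shared by both array versions, normalized together, a test chosen after seeing the data. The test was also run on simulated data with the layout of the 24 h arrays. These were independent normal values with the spread of each gene and a shift between slides. The test recovered 0% of genes changed by a log2 of 1 and 37% of those changed by 2 (15166 genes), and 13% and 72% without the interquartile filter (36595 genes). It made 0 false calls, but such values hold no outlying arrays and no correlation between genes. A gene that was not called may still differ.

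Named genes are the 12 with the largest increase and the 12 with the largest decrease among called genes with RefSeq names and groups that did not overlap, filled up by p below an adjusted 0.05 where fewer were called, called members and the 4 smallest p of each list, and the genes the study names. Of the list members this rule names, 2 are not reported here. The members and lists were chosen with earlier results of these data known. Replicate numbers did not pair the samples: the correlations of same-numbered deviations between si-A1 and si-A2 were 0.03, 0.02, 0.13 and -0.05. Alternatives covered scaling, background correction, the authors' log2 values, slide and replicate terms, filters, probe choice, variance model, thresholds and each array left out. The output held no mean signal, so the alternatives of background correction used the median signal. The number of arrays and the signal over background limit the precision.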

Additional observations from a re-analysis of the deposited data

Results flagged for a closer look

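Within the groups of 4 arrays, 21 of 208 groups of a named gene and an siRNA had an array far from its 3 neighbours, by the gap to the nearest array as a share of the whole range (at Dixon's 95% critical value). Over all 573 groups screened, si-SCRL included, this was 9.6%, above the share of about 1 in 20 that chance flags. Among the genes that differed most it was CERS6 (0.830), YWHAEP1 (0.906) and YWHAE (0.850) in si-A2 replicate 4 and TMEM64 (0.920) in si-A2 replicate 1. In the cell cycle, p53, histone and repair lists it was RBBP4 (0.887), H2AC16 (0.839) and H2BC12 (0.965) in si-A2 replicate 1, CHEK1 (0.883) in si-A2 replicate 2, BRIP1 (0.936) in si-A2 replicate 3, CENPF (0.865) in si-A2 replicate 4, BBC3 (0.874) in si-A1 replicate 1, CDC25C (0.869) in si-A1 replicate 2, E2F2 (0.911) in si-A1 replicate 3 and BCL2L1 (0.863) in si-A1 replicate 4. In the other lists it was HMGCS1 (0.859) and SCGN (0.835) in si-A2 replicate 2, TSNAX (0.867) in si-A2 replicate 3, ACTG2 (0.913) in si-A2 replicate 4, GBP2 (0.846) in si-A1 replicate 2, ACSL3 (0.846) in si-A1 replicate 3 and USP18 (0.858) in si-A1 replicate 4.

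Among the 48 h arrays with si-A2, replicate 2 had the low correlation with the other arrays that is given in the report (gap share 0.980).

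The difference between si-A2 and si-A1 changed from 24 h to 48 h, tested as an interaction without that array, for 10 of the genes named. On the log2 scale the change was 2.59 for the probe A_33_P3374365, -2.10 for CDKN1A, 3.88 for E2F2, 2.16 for E2F1, 2.19 for BRCA1, 3.25 for CLSPN, 1.40 for GMNN, 3.04 for H2AC16, 1.46 for H2BC11 and 1.39 for YWHAH. At 24 h BRCA1 was well above background on no array of either siRNA, and E2F2 and CLSPN on no si-A2 array, so that their 3 changes are measured values at or below background and no sizes of an effect. The array version also changed between the time points, which cannot be told apart from time. With all arrays none of these 10 was called.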

How the results depend on the processing

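The count of 17 genes called at 24 h stayed within 1.5 times with scaling on the 75th percentile (15), the authors' log2 values (17), the slide as a random block (24), the interquartile range over 8 arrays (19), the median over probes (18) and a log2 difference of at least 1 (17). It rose to 353 with normexp background correction (1578 genes tested), 350 without background correction (1575 tested), 29 without the slide term, 113 without the interquartile filter, 291 with genes well above background on all arrays of a group and no interquartile filter, 159 with neither a filter on low values nor the interquartile filter, 122 with a trend and robust variances and 88 at an adjusted p below 0.05. It fell to 0 with only the arrays of si-A1 and si-A2 (2145 at an unadjusted p below 0.05; 23 of the wider 113) and within slide 1 or slide 2 alone (0 each, chosen after seeing the data; 1054 and 592 at an unadjusted p below 0.05), where fewer arrays were fitted. With the replicate number as a block 0 were called (limma; 1904 at an unadjusted p below 0.05), and in the wider set 30 of the 113 remained. The samples share only a number, 1 of 4 pairs correlated best with its own. Leaving out each array gave 0 to 19 calls, with 0 without si-A2 replicate 1, si-A1 replicate 2 or si-A2 replicate 4 (1620, 1515 and 1721 at an unadjusted p below 0.05), 1 without si-A1 replicate 1 or 3, 4 without si-A2 replicate 2, 5 without si-A2 replicate 3 or si-A1 replicate 4, and 7 without si-SCRL replicate 1 or 2. At 48 h all settings gave 0 but leaving out si-A2 replicate 2 (range 0 to 282). The median of the p53 targets was 0.23 with normexp and 0.23 without background correction, 0.33 to 0.39 with an array left out, and 0.33 and 0.38 within slides 1 and 2. The difference of the TAPIR-2 probe missed the threshold in every setting (-0.14 with normexp and -0.14 without background correction, -0.82 to -0.22 with an array left out). The 4 called p53 targets lost their call with the replicate block and with only the arrays of si-A1 and si-A2, with differences as reported. Of 334 values of the 24 genes that differed most, 223 kept direction and call, 32 lost and 76 gained the call and 3 turned direction, and of 288 with an array left out 166, 119, 3 and 0 did. The 3 are SLC6A10P, -0.0418 without the interquartile filter, with genes well above background and without a filter, where its brighter probe is used. SCG2 turned to 0.00073 with normexp, BRCA1 to 0.00052 with normexp and 0.0036 without background correction. With an array left out, values close to 0 turned for AURKA (-0.164 to 0.0126), BRCA1 (-0.134 to 0.0404), MKI67 (-0.0781 to 0.0766) and CCNB1 (-0.147 to 0.00703). The cause was not tested.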
